A study of Mus musculus with 9 samples.

Results

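The keratins and the hair keratin-associated proteins were followed across 9 RNA sequencing libraries of sorted mouse mesenchymal cells. Members were all genes of the count tables whose symbol is Krt or Krtap followed by a number, which gave 104 of 23420 genes, 52 keratins and 52 keratin-associated proteins (KAPs). The cells came from the thymus, from bone (femur, tibia and pelvis) and from truncal skin (dermis of abdomen and back) of C57BL/6 mice aged 3 to 4 weeks, with 3 libraries per tissue and no treatment named. All 3 groups were sorted as Lin- SCA1+ cells, at least 25000 per sample. Lin- means negative for EpCAM, CD31, CD45, TER119, CD41, B220, GR-1, CD11b, CD4 and CD2, so the sort was directed against epithelial, endothelial and blood cells. Enzymes were used to digest thymus and bone, and no digestion of skin is described in the labels. The thymus libraries are labelled 2, 3 and 1-3. What 1-3 means, whether animals were pooled and whether each library is a different animal are not said, so the spread behind every p-value is that between libraries and may be technical.

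Keratins are the intermediate filament proteins of epithelial cells. A filament is built from pairs of one acidic type I and one basic type II keratin, and which pair a cell makes marks its layer. In the epidermis, Krt5 and Krt14 are the pair of basal cells and Krt1 and Krt10 that of the layers above. The growing hair follicle adds its own sets, Krt25 to Krt28 with Krt71 to Krt74 in the inner root sheath that moulds the hair, and Krt31 to Krt40 with Krt81 to Krt86 in the hair shaft. KAPs fill the matrix between the shaft filaments and cross-link them through cysteine, while the glycine-tyrosine-rich KAPs carry little cysteine. Mesenchymal cells use vimentin in place of keratins.

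The 9 libraries held 78757872 to 116759235 reads on genes. All 12 genes of a mesenchymal list, among them Pdgfra, Col1a1 and Vim, had reads in every library, and their summed level, as counts scaled to library size (CPM), was 53267 to 56245 in thymus. It was 67715 to 68516 in bone, and 334622 to 371201 in skin. Members took 0.00153 to 0.00515% of the gene reads of a thymus or bone library and 0.0232 to 0.085% of those of a skin library. Skin 3 stood apart from the other skin libraries. It held 99197 member reads, against 26935 in skin 1 and 22571 in skin 2. Values of a tissue are given in the order thymus 2, 3 and 1-3, bone 1, 2 and 3, and skin 1, 2 and 3.

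The keratins of these cells were led by those of the hair follicle, and they lay in skin. Of 104 members, 90 had a read in skin, 35 in thymus and 27 in bone, and 55 had reads in skin libraries alone. A further 11 had no read in any library, among them Krt12 of the cornea (0 reads in bone 2 beside a deposited RPKM of 0.0262) and all 5 KAPs on chromosome 7. The summed level of all members was 302.9, 330.8 and 1144 CPM in the skin libraries, 19.6, 43.7 and 41.0 in thymus, and 13.2, 15.9 and 13.0 in bone. The lowest skin library was thus above every thymus and bone library. In RNA of whole sorted samples, fewer cells of a type and less RNA per cell cannot be told apart.

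Each gene was tested between tissues with edgeR's quasi-likelihood test, adjusted over the 15635 genes that passed a filter on low counts. The filter kept 42 members, 37 keratins and 5 KAPs. Only 18 of these 42 would have passed on the thymus and bone libraries alone, and 10 had no read there, so those that passed through skin had to differ, and their counts are a description. Against thymus, 30 of the 42 were higher in skin and 3 were lower, where 18.3% of all genes tested were higher in skin and 19.3% lower. Against bone, 35 were higher in skin and 1 was lower, with 23.4% of all genes higher and 23.7% lower. Between thymus and bone, 8 were higher in thymus and 1 lower, with 16.5% of all genes higher and 16.1% lower. The comparisons share libraries and are not independent. With genes at 0 set to a bound and groups of 1 to 3 reads given a counting ratio, the median log2 fold change over the 42 was 6.97 for skin against thymus. It was 7.55 for skin against bone. As fitted, without bounds, these medians were 7.41 and 8.72, and the fitted median over all genes tested was -0.03 in both. Between thymus and bone the fitted median was 0.34, and 0.02 over all genes. Bounds were not used for that median, and it includes the 10 members without a read in either tissue. Without skin 3, 27 members were higher than in thymus and 28 higher than in bone. The share of all genes called in that fit is not given, so these counts too are a description.

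**Figure D1:**
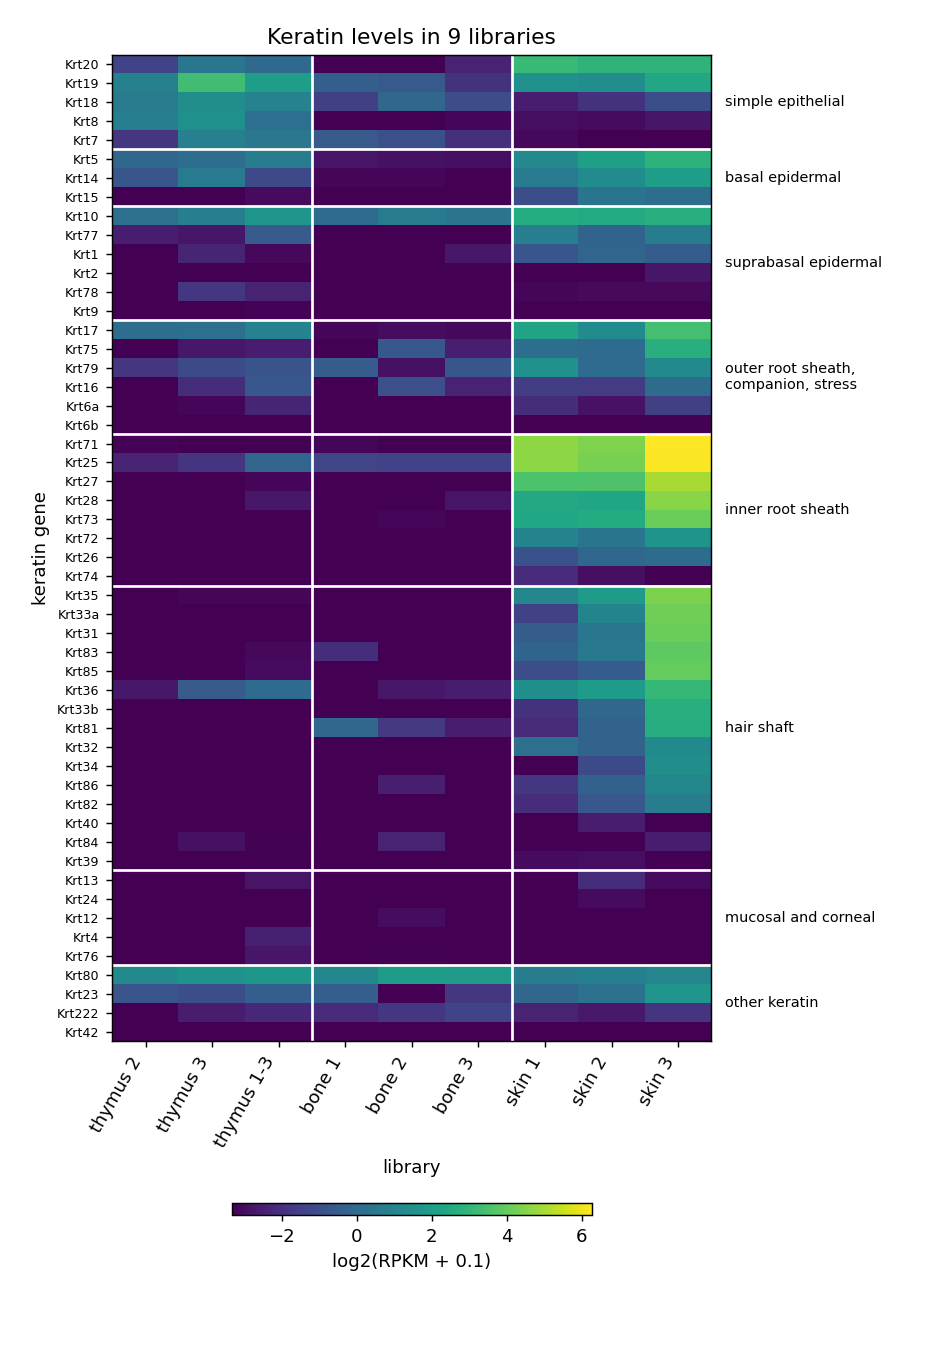
Level of all 52 keratins in the 9 libraries, as log2 of RPKM plus 0.1, with genes in rows by class and libraries in columns by tissue. Most inner root sheath and hair shaft rows are brightest in skin 3. Krt74, Krt39 and Krt40 are not, nor is Krt84, which is highest in bone 2. Krt7 is darkest in skin, Krt8 is bright in thymus alone, and Krt80 is present in all 9.

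The inner root sheath keratins were the most abundant class in every skin library, with a summed RPKM of 74.5, 65.7 and 227.5. Their summed level was 190.4, 183.5 and 594.6 CPM in skin, between 0.176 and 1.29 CPM in thymus, and between 0.478 and 0.524 CPM in bone. Of the 8 genes, 7 passed the filter, and all 7 were higher in skin than in thymus and than in bone, also without skin 3. Of all genes tested in the fit of 9 libraries, 18.3% were higher in skin than in thymus and 23.4% higher than in bone. Genes that passed through skin alone, such as Krt26 and Krt72 without a read elsewhere, had to differ, so the count is a description.

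Krt71 (chr15:101733949-101743097, mm10), a type II keratin of all layers of the inner root sheath, led the class. It had 6783, 4810 and 20852 reads in skin against 2, 0 and 1 in thymus and 2, 0 and 0 in bone. On the length-scaled RPKM of the deposited tables its level in skin was 41.1 ± 31.1 (SD, n = 3), with 25.0, 21.3 and 76.9 in skin 1, 2 and 3. Every skin library was far above every other library. The ratio of skin to thymus was 15109 (95% counting interval 5169 to 73267, adjusted p = 2.27e-06), and it was 8376 without skin 3, 9809 without thymus 3 and 29472 without thymus 2, which held 2 of its 3 thymus reads.

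Krt25 (chr11:99315844-99322941), a type I partner, followed Krt71 closely per length, with an RPKM of 24.5, 19.5 and 74.2 in skin. It was the one inner root sheath keratin with reads in all 9 libraries, 5011, 3314 and 15062 in skin, 19, 33 and 121 in thymus, and 52, 53 and 42 in bone. The groups did not overlap between skin and the rest, with a log2 fold change of 7.45 ± 0.83 (SE, adjusted p = 8.40e-05) against thymus and 7.62 ± 0.84 (adjusted p = 6.11e-05) against bone. Without skin 3 these folds fell from 175.1 to 98.3 and from 196.8 to 111.3, and without thymus 1-3 the first rose to 427.7. Between thymus and bone the difference was 0.17 ± 0.76 and was not called (adjusted p = 0.895).

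Krt27 and Krt28, type I keratins of the sheath, had 2271, 1956 and 6186 skin reads and 982, 707 and 4104 skin reads. Krt27 had 2 reads in thymus 1-3 and none in the other thymus or the bone libraries, and Krt28 had 8 reads in thymus 1-3 and 6 in bone 3. Krt73, a type II keratin of the sheath cuticle, had 1378, 1312 and 4486 reads in skin and 3 reads outside it, in bone 2. It was at least 3342-fold higher in skin than in thymus, with 3 reads over the group as the floor (adjusted p = 3.45e-05), and at least 1944-fold higher without skin 3. Leaving out a thymus or bone library lowers such bounds by construction, since the floor is then spread over fewer reads.

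Krt72 and Krt26, of the sheath cuticle in human follicles, were lower, with a skin RPKM of 2.05 ± 0.916 and 0.736 ± 0.269 (SD, n = 3), and had no read in thymus or bone. Krt74, which marks the Huxley layer in human follicles, had 22, 6 and 0 skin reads and failed the filter. In mouse, GENCODE lists Krt74 as a transcribed pseudogene without a protein. It was the one member of the class that was not highest in skin 3. The pairing partners were close to balance per length. Type I inner root sheath keratins summed to an RPKM of 42.2, 37.2 and 130.5 in skin 1, 2 and 3, and type II to 32.3, 28.5 and 97.1. Both sums moved together between the libraries, with type I above type II in each.

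The hair shaft keratins were second in skin 3, with a summed RPKM of 115.6, and varied more between the skin libraries than the inner root sheath. Their summed level was 18.1, 38.8 and 243.0 CPM in skin, 0.0839 to 1.36 in thymus and 0.217 to 2.03 in bone. Skin 3 was 13.4 times skin 1 for this class, against 3.12 times for the inner root sheath, 3.23 times for the basal keratins and 1.09 times for the suprabasal ones. Of the 15 genes, 13 were highest in skin 3. These ratios describe 3 libraries and carry no test.

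Krt35 (chr11:100092192-100096224), which in human follicles is among the first hair keratins to appear in the matrix, had 402, 673 and 4291 reads in skin, 0, 2 and 2 in thymus, and none in bone. Its log2 fold change against thymus was 10.67 ± 1.36 (SE, adjusted p = 0.000597). The fold of 1633 fell to 548.6 without skin 3 and stayed called (adjusted p = 1.00e-04). Krt85 (chr15:101431014-101431489 in the deposited tables), its type II counterpart in the human matrix, had 37, 36 and 1287 reads in skin. That deposited interval is short, and the GENCODE annotation used here holds no gene of this symbol. Sequence that Krt85 shares with other keratins was therefore not checked. Skin 3 was 28.1 times skin 2 for Krt85 and 5.02 times for Krt35. Krt85 was called against thymus (adjusted p = 0.00603), and not without skin 3 (adjusted p = 0.0718).

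The cortex keratins Krt31, Krt33a and Krt33b had 121, 201 and 3323 reads, 51, 324 and 3778 reads, and 26, 125 and 1192 reads in skin, and none in thymus or bone. All 3 were thus not detected outside skin at this depth, and each was called higher in skin in both comparisons. With no filter on low counts, Krt33a was not called against thymus or bone (adjusted p = 0.0732 and 0.0618), nor Krt31 against thymus (adjusted p = 0.0581). Krt31 was at least 1697-fold higher in skin than in thymus (adjusted p = 0.00965) and at least 232.7-fold higher without skin 3 and 2583-fold without skin 1. Krt33a was at least 1934-fold higher (adjusted p = 0.0134), at least 271.0-fold without skin 3 and 3007-fold without skin 1. Krt34 had 0, 57 and 511 skin reads and failed the filter. These 4 type I genes lie side by side on chromosome 11 and share sequence. In the GENCODE transcripts, 14.0% of the 100-base windows of Krt31 and 17.5% of those of Krt34 also occur in a neighbour, so their reads may be divided between them.

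Krt32 and Krt82, keratins of the hair cuticle, were also read in skin alone. Krt32 had 220, 121 and 473 reads in skin, and Krt82 had 30, 111 and 407. Skin 3 was 2.21 times skin 1 for Krt32 and 13.9 times for Krt82. Per length, type I hair shaft keratins exceeded type II in every skin library, with a summed RPKM of 6.81, 12.7 and 75.4 against 1.58, 3.85 and 40.2.

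A few hair shaft keratins were also read outside skin. Krt36 had 514, 544 and 1567 reads in skin, 10, 101 and 133 in thymus, and 0, 10 and 10 in bone. It was higher in skin than in thymus, with a log2 fold change of 3.83 ± 1.02 (SE, adjusted p = 0.0146), 3.21 without skin 3 and 4.51 without thymus 1-3. Thymus exceeded bone by 3.50 ± 1.10 (adjusted p = 0.0350), where thymus 2 equalled the 2 highest bone libraries in reads. That call was lost without any of thymus 3, thymus 1-3, bone 1, bone 2, bone 3 or skin 2 (adjusted p = 0.0501 to 0.115), and without thymus 1-3 the fold of 11.4 was 7.10. It was also lost in a fit of thymus and bone alone (adjusted p = 0.157) and on log2 RPKM with limma (adjusted p = 0.0607 and 0.210).

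Krt81, a cortex keratin, had 190, 42 and 10 reads in bone, none in thymus, and 26, 128 and 1319 in skin. It was at least 88.0-fold lower in thymus than in bone (adjusted p = 0.0283). The call did not hold without any one of the thymus libraries, bone 1 or bone 2 (adjusted p = 0.0506 to 0.0742), and without bone 1 the bound was 28.2. Skin and bone overlapped for this gene, and the difference of 2.91 (SE 1.5) was not called (adjusted p = 0.153). Krt81 shares 25.0% of its 100-base windows with Krt83, Krt86 or Krt87. In bone 1, Krt83 had 19 reads and Krt86 none. The deposited Krt83 lies at chr15:101433102-101438804, apart from the GENCODE gene of that name whose windows were compared (chr15:101485130-101491512).

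**Figure D2:**
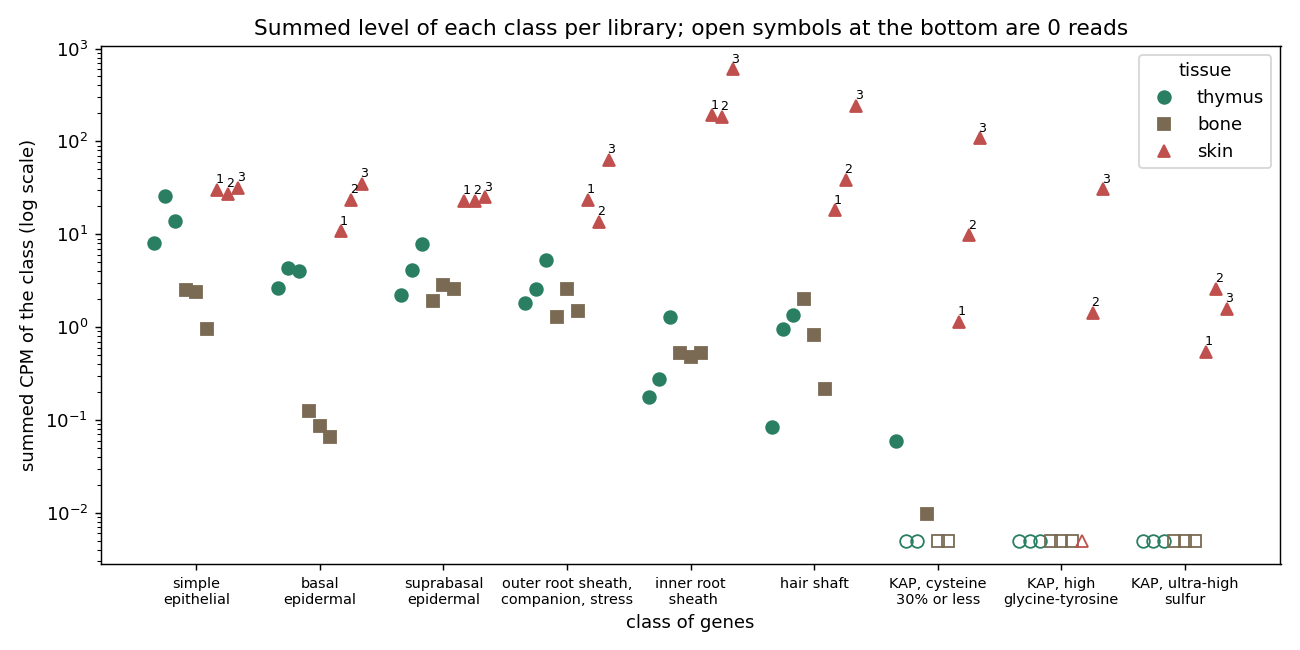
Summed CPM of 9 classes of members on a log axis, 1 symbol per library, with the number of each skin library beside its symbol and open symbols for 0 reads. Skin 3 lies above skin 1 and 2 for the inner root sheath, the hair shaft, the basal keratins, the outer root sheath class and 2 of the 3 KAP classes. The 3 skin libraries lie together for simple epithelial and suprabasal keratins, and ultra-high sulfur KAPs are highest in skin 2.

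The KAPs were read in skin alone but for 8 reads, 7 of them in thymus 2 and 1 in bone 1. Their summed level was 1.69, 13.7 and 140.1 CPM in skin 1, 2 and 3. By composition of the encoded protein, 15 are high glycine-tyrosine KAPs (glycine plus tyrosine at least 35% and above cysteine), 17 of the others are ultra-high sulfur KAPs (cysteine above 30%), and 20 have 30% cysteine or less. The first class holds 2 genes that also exceed 30% cysteine, Krtap5-2 and Krtap5-3, both without reads. Krtap16-1, with 8 reads in skin 3, was classed by the GENCODE gene of that name on chromosome 11, while the deposited gene lies on chromosome 16. The last class summed to 1.15, 9.70 and 108.0 CPM in skin, and the high glycine-tyrosine class to 0, 1.42 and 30.5 CPM. The ultra-high sulfur class summed to 0.54, 2.58 and 1.57 CPM, the one class of KAPs that was not highest in skin 3. Of its 12 genes with skin reads, 9 were highest in skin 2 and 3 in skin 3.

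Krtap7-1 and Krtap11-1, both of the chromosome 16 cluster, together held 66 of 150 KAP reads in skin 1, 300 of 935 in skin 2 and 6664 of 12149 in skin 3. Krtap7-1 (chr16:89507703-89508323) had 37, 158 and 3704 skin reads, and 1 read each in thymus 2 and bone 1. Krtap11-1 (chr16:89570176-89571183) had 29, 142 and 2960 reads in skin and none elsewhere, at least 1458-fold higher than in thymus (adjusted p = 0.0192). That call was lost without thymus 2 (adjusted p = 0.0608) or thymus 3 (adjusted p = 0.0543) and with no filter on low counts (adjusted p = 0.0911), and the bound was 123.6 without skin 3 and 2274 without skin 1. Skin 3 was 18.5 and 16.4 times skin 2 for the pair.

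Krtap8-1, a high glycine-tyrosine KAP, had 0, 77 and 2206 skin reads, and Krtap15 had 0, 25 and 1009. Both failed the filter, since too few libraries held enough reads, and went untested. Other members of the glycine-tyrosine class were read in skin 3 alone, among them Krtap16-3 with 75 reads and Krtap19-9b with 50. Skin 1 held no read of any of the 15.

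Krtap17-1, an ultra-high sulfur KAP at the end of the chromosome 11 cluster, ran the other way, with 42, 50 and 37 reads in skin. It was the one gene of its class to pass the filter, at least 60.1-fold higher in skin than in thymus (adjusted p = 0.0208). The call was lost without any one thymus library, skin 1 or skin 2 (adjusted p = 0.0525 to 0.0766). Krtap4-7 had 0, 31 and 12 skin reads, Krtap1-3 had 0, 14 and 16, and Krtap4-1 had 4, 18 and 26. The 23 KAPs of chromosome 16 summed to 16.6 times more CPM in skin 3 than in skin 2, and the 21 of chromosome 11 to 1.89 times more. The position and the class overlap, since all the high glycine-tyrosine KAPs with reads lie on chromosome 16.

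**Figure D3:**
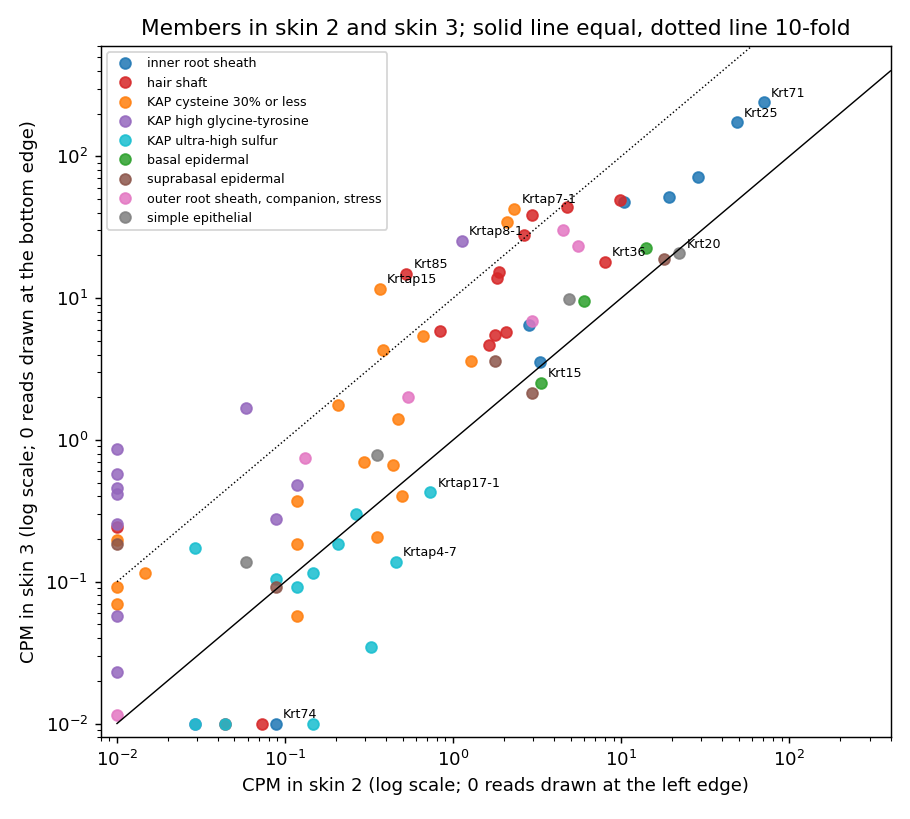
CPM of each member with reads in skin 2 or skin 3, on log axes, coloured by class, with equality as a solid and a 10-fold excess in skin 3 as a dotted line. Inner root sheath keratins lie in a band at 1.07 to 4.57 times above equality except Krt74, several hair shaft keratins and KAPs such as Krt85 and Krtap8-1 reach 28.1 and 22.5 times, and most ultra-high sulfur KAPs lie around or below equality, with Krtap4-8 (2 and 15 reads) above it.

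Skin 3 did not stand apart across genes in general. Over the 14301 genes that passed the filter and had more than 3 reads in both libraries, the median ratio of skin 3 to skin 1 was 1.02, and 4.96% of genes were above 3. Among members that passed the filter, 23 of 41 were above 3. Most genes of the hair follicle that are not keratins were highest in the same library. Their summed level was 404.4, 461.2 and 665.6 CPM in skin, 131.1 to 167.8 in thymus and 293.5 to 347.3 in bone. Much of it was Hr, with 276.5, 326.9 and 251.2 CPM in skin. Hr was lowest in skin 3, as was Lgr5 (22.4, 29.5 and 12.7 CPM). Of 24 such genes, 20 were highest in skin 3, with a median ratio to skin 1 of 4.74. Tchh (trichohyalin of the inner root sheath) had 50.3, 30.1 and 135.3 CPM in skin, S100a3 of the hair cuticle 8.08, 17.2 and 57.5, and Gprc5d of the keratinizing cortex 0.517, 1.79 and 16.3. Of the 24, 16 were higher in skin than in thymus and none lower, where 18.3% of all genes tested were higher and 19.3% lower. Against bone, 13 were higher and 1 lower, where 23.4% of all were higher and 23.7% lower. Genes that passed the filter through skin, such as Prr9, Crnn and Shh without a read elsewhere, had to differ. These counts are a description.

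Markers of other cell types of skin moved in the same direction to unequal extents. Of 19 keratinocyte junction and identity genes, 18 were highest in skin 3, with a median ratio to skin 1 of 3.38 and a summed level of 142.0, 157.3 and 379.8 CPM. This list was not at 0 elsewhere, with 233.5 to 274.4 CPM in thymus and 289.7 to 372.5 in bone, much of it from Jup in thymus and Itga6 in bone. Epcam, whose protein was sorted against, had 2.51, 2.12 and 5.29 CPM in skin. Of 10 melanocyte genes with skin reads, 8 were highest in skin 3 (median ratio 2.96), with Dct at 1.12, 1.57 and 4.69 CPM. Of 18 dermal papilla genes, 10 were highest in skin 3 (median ratio 1.38), and Corin, which marks the papilla, had 0.652, 2.81 and 43.3 CPM. The 12 mesenchymal genes had a median ratio of 1.17, and of 14 other intermediate filament genes with skin reads 2 were highest in skin 3 (median ratio 0.845). The part of these cell types in the keratin levels was not tested.

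**Figure D4:**
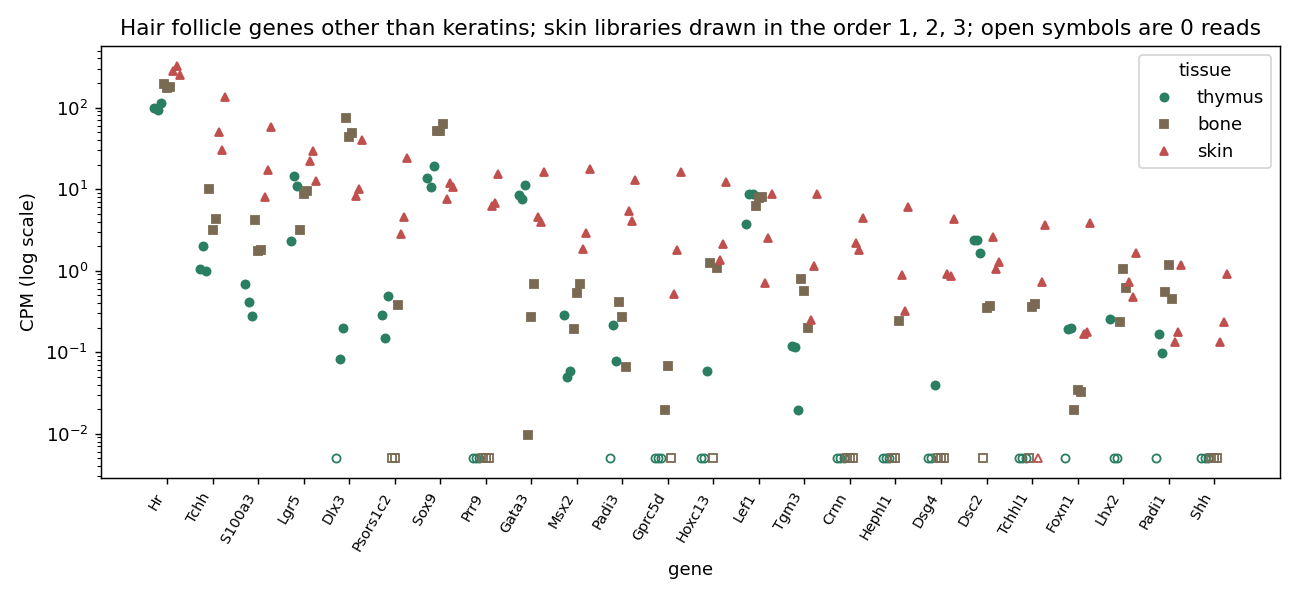
CPM of 24 hair follicle genes other than keratins on a log axis, 1 symbol per library, with the skin libraries drawn from left to right as 1, 2 and 3 and open symbols for 0 reads. In 20 of the 24 the third skin symbol is the highest of the skin libraries, and Prr9, Crnn and Shh have no read in thymus or bone.

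The basal keratins were present in skin and thymus and nearly absent from bone. Krt5 (chr15:101707070-101712891) had 576, 960 and 1958 reads in skin, 220, 254 and 343 in thymus, and 11, 8 and 6 in bone, with no overlap between tissues. Its log2 fold change was 2.56 ± 0.45 (SE, adjusted p = 0.000795) for skin against thymus, 7.47 ± 0.58 (adjusted p = 1.90e-06) for skin against bone, and 4.91 ± 0.53 (adjusted p = 2.99e-05) for thymus against bone. Krt14 (chr11:100203162-100207510), the partner of Krt5, had 296, 409 and 826 reads in skin, 98, 265 and 63 in thymus, and 2, 2 and 0 in bone. Thymus exceeded bone by 6.46 ± 0.89 (adjusted p = 0.000177), a fold of 88.0 that was 52.0 without thymus 3. Skin exceeded thymus by 2.36 ± 0.66 (adjusted p = 0.0146), a call lost without skin 3 (adjusted p = 0.0820), thymus 2 (adjusted p = 0.0524) or thymus 1-3 (adjusted p = 0.0572), or with library size as the only scaling (adjusted p = 0.0592), while the fold of 5.15 was 8.69 without thymus 3.

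Krt15, a basal keratin that also marks the follicle bulge, had 83, 227 and 220 reads in skin and 4 reads outside it, all in thymus 1-3. It was highest in skin 2, unlike its classmates. The basal keratins summed to 10.7, 23.4 and 34.6 CPM in skin, below the inner root sheath in each library.

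The suprabasal keratins were level across the skin libraries, at 22.9, 22.7 and 25.0 CPM. Krt10 made up most of the class, with an RPKM of 6.03 ± 0.381 in skin (SD, n = 3). It had 1544, 1221 and 1642 reads in skin, 254, 384 and 665 in thymus, and 198, 334 and 223 in bone. It was higher in skin by 2.19 ± 0.37 than in thymus (adjusted p = 0.000594) and by 2.91 ± 0.38 than in bone (adjusted p = 7.18e-05). Its partner Krt1 was lower per length, with a skin RPKM of 0.629 ± 0.143 and 152, 202 and 185 reads, against 0, 30 and 4 reads in thymus and 0, 0 and 12 in bone.

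Krt1 was not called against thymus (log2 difference 4.53 ± 1.77, adjusted p = 0.0646). It was called against bone (adjusted p = 0.0271), and not without bone 1, bone 2 or skin 2 (adjusted p = 0.0553 to 0.0797). Without bone 3 the bone group had no read, and without bone 2 the fold of 52.1 was 34.5. Krt77 had 337, 121 and 313 reads in skin, 12, 10 and 103 in thymus and none in bone. It was not called against thymus (2.94 ± 1.11, adjusted p = 0.0619), and thymus exceeded bone at least 38.2-fold (adjusted p = 0.00467), at least 9.60-fold without thymus 1-3. Krt2 of the upper epidermis had 16 reads, all in skin 3, Krt9 of footpad skin had 2, both in thymus 1-3, and Krt78 had 0, 72 and 32 in thymus and 5, 6 and 8 in skin. Late epidermal genes were unevenly detected, and most of those read were highest in skin 3. Of 19 cornified envelope genes in the tables, 5 had no skin read, among them Lce1a1 and Flg2. Of the 14 with skin reads, 13 were highest in skin 3, with a median ratio to skin 1 of 2.10. The list summed to 125.7, 126.1 and 237.5 CPM in skin, with 114 of the last from Sbsn. Of the 11 genes of this list that passed the filter, 6 were higher and none lower in skin in each comparison. Among all genes, 18.3% were higher than in thymus and 23.4% higher than in bone. List genes that passed through skin had to differ, so the count is a description.

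Keratins of the outer root sheath, the companion layer and stressed epidermis summed to 23.6, 13.7 and 62.9 CPM in skin 1, 2 and 3. Among them, Krt17 had 901, 376 and 2013 reads in skin, 170, 181 and 303 in thymus, and 2, 4 and 2 in bone. Skin exceeded thymus by 2.72 ± 0.52 (adjusted p = 0.00141), and thymus exceeded bone by 6.21 ± 0.69 (adjusted p = 3.41e-05). The fold between skin and thymus was 6.58, and 3.97 without skin 3. Krt75 of the companion layer had 410, 309 and 2606 reads in skin, 1, 20 and 24 in thymus, and 0, 216 and 22 in bone. It was called against both tissues (adjusted p = 0.0137 and 0.0440) and against neither without skin 3 (adjusted p = 0.0532 and 0.210). The call against thymus was also lost without thymus 2 (adjusted p = 0.0528) or thymus 3 (adjusted p = 0.0538). The call against bone was also lost without thymus 3, thymus 1-3, bone 1, bone 3, skin 1 or skin 2 (adjusted p = 0.0536 to 0.124), and with no filter, library size as the only scaling, or a fit of both tissues alone (adjusted p = 0.0536 to 0.0904).

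Krt79, a keratin of the upper follicle and its sebaceous duct, did not follow skin 3, with 709, 201 and 595 reads in skin, 47, 81 and 95 in thymus, and 129, 8 and 98 in bone. It was higher in skin in both comparisons (adjusted p = 0.0129 against thymus and 0.0150 against bone), and lost the first call without thymus 2 (adjusted p = 0.0519). Krt16 had 41, 37 and 174 skin reads with 0, 73 and 14 in bone, so these tissues overlapped. Krt6a had 39, 9 and 65 skin reads, none in bone, and 42.9% of its windows in common with other genes such as Krt6b. Its call against bone (adjusted p = 0.0262) was lost without any one bone library, skin 1 or skin 3 (adjusted p = 0.0520 to 0.0663). Of 7 sebocyte genes that passed the filter, 3 were higher in skin than in thymus and none lower, where 18.3% of all genes were higher and 19.3% lower. Any that passed through skin alone had to differ, so the count is a description. Awat2 of that list had 0.652, 0.572 and 0.830 CPM in skin, and Plin2 had 48.7, 52.1 and 66.0.

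The simple epithelial keratins divided between the tissues. Krt8, the type II keratin of single-layered epithelia, had 345, 569 and 194 reads in thymus, 6, 4 and 12 in skin, and 0, 0 and 2 in bone. It was lower in skin than in thymus by 5.15 ± 1.06 on the log2 scale (adjusted p = 0.00234). The ratio of thymus to bone was 508.1 (95% counting interval 140.3 to 4201, adjusted p = 0.000322), and it was 317.4 without bone 2. Without bone 3, which held both bone reads, the value is a bound of 238.8. Skin was called above bone too (adjusted p = 0.0269), a call lost without skin 3, bone 1, bone 2 or thymus 3 (adjusted p = 0.0559 to 0.0695) and on log2 RPKM with limma (adjusted p = 0.309 and 0.859 with a pseudocount of 0.1 and 1). In Krt8, 17.1% of the windows recur in other loci such as its pseudogene Krt8-ps.

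Krt18, the partner of Krt8, was less confined to thymus, with 241, 376 and 260 reads there, 38, 123 and 49 in bone, and 12, 24 and 68 in skin. It was lower in skin than in thymus by 2.60 ± 0.82 (adjusted p = 0.0260), and this call was lost without thymus 3, thymus 1-3, skin 1 or skin 2 (adjusted p = 0.0624 to 0.0931). The fold of 6.05 was 10.6 without skin 3. Thymus and bone did not pass (1.98 ± 0.80, adjusted p = 0.0774).

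Krt7, a type II keratin of ducts and glands, had 35, 313 and 222 reads in thymus, 125, 73 and 22 in bone, and 3, 0 and 0 in skin. It was the one member called lower in skin in both comparisons, 136.0-fold lower than in thymus (95% counting interval 46.3 to 661.5, adjusted p = 0.00409) and 57.2-fold lower than in bone (19.3 to 279.7, adjusted p = 0.00823). Without skin 1, which held the 3 reads, the values are bounds of 86.4 and 36.4, and without skin 3 the ratios were 87.7 and 36.9. Without bone 1 the second was 36.9. Thymus and bone overlapped and were not called apart (1.29 ± 1.17, adjusted p = 0.438).

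Krt20 (chr11:99428403-99438153), known from gut, bladder and Merkel cells, ran opposite to Krt7 and Krt8. It was the most abundant simple keratin of skin, with an RPKM of 7.92 ± 0.891 (SD, n = 3) and 2178, 1513 and 1793 reads, against 68, 287 and 175 in thymus and 0, 0 and 16 in bone. Its log2 fold change was 3.84 ± 0.83 (adjusted p = 0.00485) against thymus and 8.68 ± 1.10 (adjusted p = 0.000152) against bone. The last fold, 410.6, was 263.6 without bone 2, and without bone 3 the bone group had no read. In thymus it was higher than in bone by 4.84 ± 1.00 (adjusted p = 0.00478), a fold of 28.6 that was 18.4 without bone 2, and without bone 3 there was again no bone read. The call was lost in a fit of thymus and bone alone (adjusted p = 0.0613). Skin 3 was 0.844 times skin 1 for Krt20, unlike the follicle keratins.

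Krt19, which has no fixed partner, had 2.32, 13.0 and 5.53 CPM in thymus, 5.16, 4.87 and 9.92 CPM in skin, and 0.903, 0.725 and 0 CPM in bone. Thymus and skin overlapped, with a difference of -0.06 ± 1.00 (adjusted p = 0.972). Thymus was above bone by 3.67 ± 1.12 (adjusted p = 0.0317), but not without thymus 3 (adjusted p = 0.110, fold 7.21 in place of 12.7), thymus 1-3 (adjusted p = 0.0652) or bone 2 (adjusted p = 0.0753), with no filter (adjusted p = 0.0586) or in a fit of thymus and bone alone (adjusted p = 0.0663). Skin was above bone (adjusted p = 0.0240), but not without skin 3 (adjusted p = 0.0683) or bone 2 (adjusted p = 0.0577). The count of 0 in bone 3 stands beside an RPKM of 0.164 in the same library, so the deposited tables do not count the same reads for this gene.

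Per length, simple type II keratins summed to an RPKM of 0.0422, 0.0216 and 0.0514 in skin beside 11.8, 10.1 and 13.1 for type I. In thymus the sums were 1.8, 4.42 and 2.32 for type II and 3.43, 13.9 and 6.66 for type I. The simple keratins of skin were thus nearly all type I, whereas the other type II keratins of skin, such as Krt71 and Krt5, come from other classes.

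**Figure D5:**
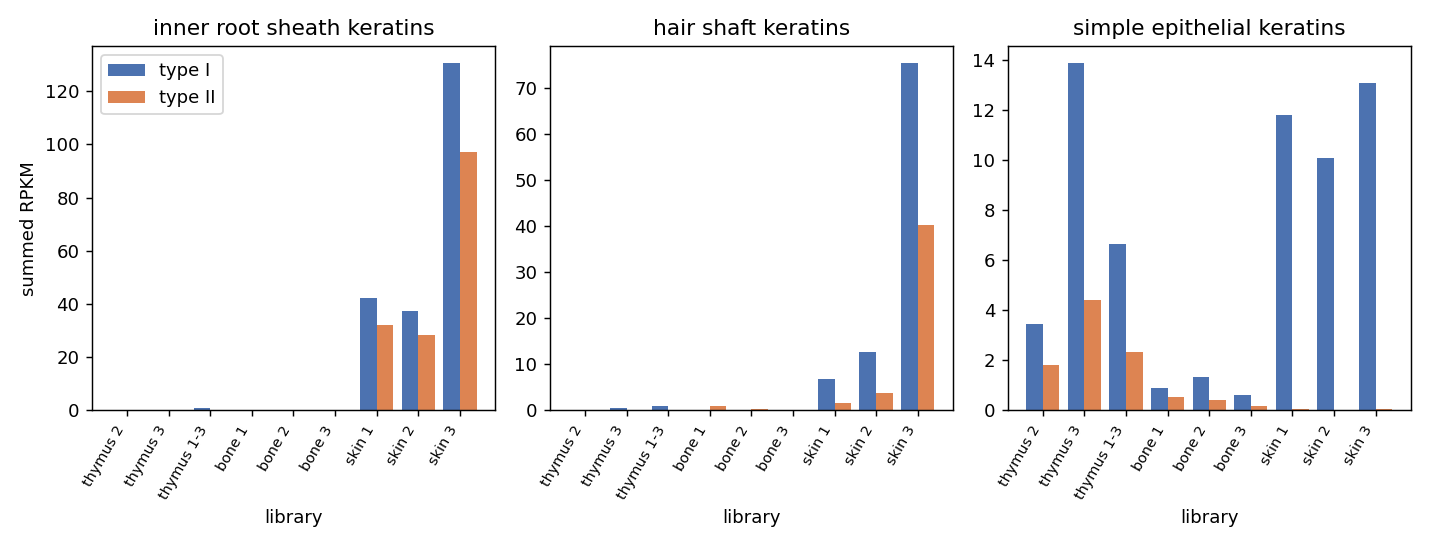
Summed RPKM of type I and type II keratins of 3 classes in the 9 libraries, as bars from 0. Both types are present in skin for the inner root sheath and the hair shaft, while the simple epithelial type II bars are near 0 in skin and present in thymus.

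Genes of thymic epithelium leaned toward thymus over bone, though few were called. Over those that passed the filter, the fitted median log2 fold change of thymus against bone was 1.87, and 0.02 over all genes tested. Of 13 such genes that passed the filter, 3 (Aire, Dclk1 and Tbata) were higher in thymus and 1 (Cd80) lower, where 16.5% of all genes were higher and 16.1% lower. Psmb11 had 0.520, 0 and 0.363 CPM in thymus, Aire 0.940, 0.385 and 0.255, and Epcam 1.67, 1.25 and 0.843. The list summed to 298.8 to 355.2 CPM in thymus, mostly Dclk1, and to 95.1 to 117.5 CPM in bone. The part of thymic epithelial cells in the levels of Krt5, Krt8 and Krt14 was not tested. Of the mucosal keratins, Krt4 with 18 reads and Krt76 with 12 were read in thymus 1-3, and Krt13 had 6 there and 0, 20 and 3 in skin.

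Krt80, a keratin of many epithelia, was read in all libraries, with 444, 574 and 595 reads in thymus, 367, 723 and 571 in bone, and 326, 298 and 426 in skin. None of its comparisons was called, with log2 differences of -0.15 ± 0.33 for skin against thymus, -0.30 ± 0.33 for skin against bone and -0.15 ± 0.33 for thymus against bone (adjusted p = 0.759, 0.484 and 0.770). On log2 RPKM with limma it was called lower in skin than in thymus (adjusted p = 0.0375 and 0.0386 with a pseudocount of 0.1 and 1) and than in bone (adjusted p = 0.0190 and 0.0170), as it was against bone with library size as the only scaling (adjusted p = 0.0233). It was the most abundant keratin of bone per length, at 2.07, 3.76 and 3.55 RPKM. Krt23 had 150, 174 and 587 reads in skin, 88, 65 and 100 in thymus, and 101, 0 and 26 in bone. It was called in neither comparison of skin (adjusted p = 0.164 and 0.0599).

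Promoters are shown for members that moved together in skin, 3 of the inner root sheath, 2 of the hair shaft and 2 KAPs, with Krt20 and the basal keratin Krt5 for contrast. Each line gives the 100 bases before the gene start on its own strand from RefSeq, build GRCm38.p6, and capitals mark TATAAA, the letters of a TATA box.
Krt71: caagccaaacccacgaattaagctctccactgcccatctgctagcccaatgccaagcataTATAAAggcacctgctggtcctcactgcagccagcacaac
Krt25: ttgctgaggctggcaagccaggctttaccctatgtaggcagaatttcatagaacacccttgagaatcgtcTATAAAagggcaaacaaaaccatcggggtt
Krt73: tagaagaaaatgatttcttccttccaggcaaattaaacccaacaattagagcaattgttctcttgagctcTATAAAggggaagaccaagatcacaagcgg
Krt31: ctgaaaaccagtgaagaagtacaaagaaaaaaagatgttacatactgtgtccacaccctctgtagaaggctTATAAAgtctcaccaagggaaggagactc
Krt34: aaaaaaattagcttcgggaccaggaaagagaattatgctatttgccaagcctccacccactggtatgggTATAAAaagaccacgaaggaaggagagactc
Krtap8-1: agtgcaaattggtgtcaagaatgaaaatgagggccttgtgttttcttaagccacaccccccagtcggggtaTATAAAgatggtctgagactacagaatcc
Krtap11-1: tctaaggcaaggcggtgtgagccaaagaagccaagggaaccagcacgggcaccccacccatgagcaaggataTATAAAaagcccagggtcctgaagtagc
Krt20: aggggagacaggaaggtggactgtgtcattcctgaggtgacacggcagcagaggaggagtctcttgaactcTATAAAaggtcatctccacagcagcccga
Krt5: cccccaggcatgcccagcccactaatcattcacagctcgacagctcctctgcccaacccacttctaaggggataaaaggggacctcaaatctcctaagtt
The printed windows lie on the minus strand, at chr15:101743098-101743197 for Krt71, chr11:99322952-99323051 for Krt25, chr15:101802361-101802460 for Krt73, chr11:100050552-100050651 for Krt31, chr11:100041555-100041654 for Krt34, chr16:89487953-89488052 for Krtap8-1, chr16:89571184-89571283 for Krtap11-1, chr11:99438154-99438253 for Krt20 and chr15:101712906-101713005 for Krt5. TATAAA begins 40, 30 and 30 bases before the start in Krt71, Krt25 and Krt73, 29 and 31 in Krt31 and Krt34, 29 and 28 in Krtap8-1 and Krtap11-1, and 29 in Krt20. The Krt5 window does not hold these letters.

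Promoter windows from 250 bases before to 50 after the start were found for 82 of the 104 members and searched on both strands. The Krtap16-1 window is that of the chromosome 11 gene. A gene with several windows counted once, if any of them held the letters. TATAAA was in 58 of the 82, against 15.7% of all 27025 genes with a promoter window. It was in all 7 inner root sheath and all 14 ultra-high sulfur KAP windows found, in 6 of 9 hair shaft windows, in 2 of 4 simple keratin windows, and in none of the 2 basal keratin windows. Within 40 to 20 bases before the start on the gene's strand it was in 41 of the 82, against 2.41% of all. CTTTGAA, letters of a LEF1 site, was in 5 of the 9 hair shaft windows (Krt31, Krt32, Krt33b, Krt34 and Krt39), in 1 of 7 inner root sheath windows (Krt28), in 15 of all 82 members, and in 5.93% of all genes. AGATAA, letters of a GATA site, was in 4 of the 7 inner root sheath windows (Krt25, Krt27, Krt71 and Krt73), in none of the hair shaft windows, in 20 of the 82, and in 12.7% of all. Neighbouring members arose as copies of each other, so their windows are not independent.

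The genes most like single members over the 9 libraries were named by the correlation of log2(CPM + 0.1), given as a description. For Krt71 they were Prr9 (r = 0.9996), Agxt, Crnn and Clvs2, all without a read in thymus and bone. Prr9 had 6.16, 6.71 and 15.4 CPM in skin and Agxt 0.169, 0.176 and 0.254, so that likeness rests mainly on the zeros. For Krt14 they were Ang (r = 0.991), Ccl24, Gng10 and Dpt. Ang had 11.2, 16.3 and 11.9 CPM in thymus, 6.39, 6.34 and 6.29 in bone, and 18.4, 22.0 and 32.2 in skin. For Krt35, the hair shaft keratin with the highest mean RPKM in skin (Krt36 was higher in skin 1), they were Elf5 (r = 0.9995), Dct, Cd209b and Prss8. Elf5, Dct and Cd209b had no read outside skin, and Prss8 had 0.0294 CPM outside it, in thymus 1-3 alone. This likeness, too, rests mainly on the near absence of reads outside skin.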

How the data were processed

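RNA of Lin- SCA1+ cells was sequenced in 9 libraries, 3 per tissue. Read counts per gene and RPKM values were deposited by the authors, with a coverage signal beside each RPKM that served only to check it. CASAVA 1.8.2, HTSeq 0.5.4 and mm10 appear in the submitters' processing notes. No source used here gives the aligner, the annotation or the strandedness of the counting. Summary lines that name no gene, 5.05 to 14.8% of each library's total, were left out. The deposited counts were scaled with TMM factors and tested in 1 fit over all 9 libraries with edgeR 4.0.16 (R 4.3.3), after its filter on low counts, with Benjamini-Hochberg adjustment over 15635 genes and a threshold of 0.05. Standard errors were worked back from the log2 fold change and the test statistic. CPM uses the same factors, and levels between genes are compared on the deposited RPKM only. Where a group had no reads, 3 reads over the group stood as its floor, and a group with 1 to 3 reads was given a 95% counting interval. In thymus, bone and skin that floor is 0.00881, 0.00960 and 0.0123 CPM. Between 42.2 and 76.9% of genes with 1 to 20 reads had even counts, so reads are not independent molecules, and intervals and floors cover counting error only.

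KAP classes came from the composition of proteins translated from GENCODE vM21 coding sequences, and shared sequence from 100-base windows of its transcripts. Promoters were matched by symbol in the RefSeq table of GRCm38.p6. Named members were the 5 highest of each class in skin and of thymus and bone by RPKM, every basal, suprabasal and simple keratin, and members called between thymus and bone. Others are named for a class count or a contrast and were picked with their values in view. The members and lists were chosen with earlier results of these data known. The fit was tested on simulated counts. Alternatives were other scaling, filters and tools (DESeq2 1.42.0, limma 3.58.1 on log2 RPKM), a replicate block, a fit of 2 tissues, and each library left out.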

Additional observations from a re-analysis of the deposited data

How the results depend on the processing

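Most results for single members kept their direction and call under the 18 alternatives, with 1174 values on the same side of the threshold, 83 that lost a call, 26 that gained one and 9 that reversed. Not every member was tested under each alternative, and the share of all genes called under each is not given. The shares of the main fit do not apply to them, so the counts of members that follow are a description. On log2 RPKM with limma, 13 members were higher in skin than in thymus under either pseudocount and 14 higher than in bone, and none was lower in thymus than in bone. With a filter of 1 CPM in 3 libraries, 23 were higher in skin than in bone, fewer members being tested. With library size as the only scaling, 2 were lower in skin than in bone, while the median of all genes moved to -0.72 for skin against bone and -0.66 for skin against thymus. In a fit of thymus and bone alone, 5 were higher in thymus. Leaving out each library gave 26 to 37 members higher in skin than in thymus and 2 to 3 lower, 28 to 41 higher than in bone, 6 to 10 higher in thymus than in bone, and 0 to 1 lower. Same-numbered libraries showed no strong shared deviation, with correlations of -0.0326 to 0.0755, and thymus 1-3 had no same-numbered partner. Correlations of so few libraries cannot exclude that equal numbers mean the same animals or batch. With the replicate block 29 members were higher and 2 lower in skin than in thymus, 30 and 1 than in bone, and 6 higher and 0 lower in thymus than in bone. The block also ended single calls, in skin against thymus for Krt14 (adjusted p = 0.0730), Krt18 (0.103) and Krtap17-1 (0.170), in skin against bone for Krt19 (0.0823), Krt6a (0.0762), Krt75 (0.0741) and Krtap17-1 (0.0901), and in thymus against bone for Krt19 (0.180), Krt36 (0.170) and Krt81 (0.130). Calls were gained in a fit of 2 tissues and with DESeq2 for Krt1 (0.0143 and 0.0110) and Krt77 (0.0368 and 0.0144) in skin against thymus and Krt18 in thymus against bone (0.0402 and 0.0290). The reversed values were all of differences that were not called. For skin against thymus, Krt19 was 0.76 without thymus 3, 0.09 without skin 1 and 0.12 without skin 2, in a range of -0.48 to 0.76 over libraries left out. Krt80 was 0.21 there with the replicate block and 0.027 without thymus 1-3 (range -0.30 to 0.027). For thymus against bone, Krt25 was -1.36 with the block, -0.12 on log2(RPKM + 0.1) and -1.12 without thymus 1-3 (range -1.12 to 0.62). Krt80 was 0.0059 there without thymus 2 (range -0.36 to 0.0059). The cause was not tested. Members with few reads in thymus or bone are limited by depth, and their folds are bounds.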
